A study of Mus musculus with 9 samples.

Results

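The small heat shock protein genes Hspb1, Hspb2, Hspb3, Hspb6, Hspb7, Hspb8 and Cryab were followed in the tissue that borders an infarct of the mouse heart. They were chosen by gene symbol, and all 7 were present among the 19505 genes measured. Each had 1 row in the deposited table, so the rule of keeping the brightest row of a gene selected nothing here. The family was taken up with the low Hspb6 signal after cell injection already known, so Hspb6 is described below without a test in every contrast, since each contrast uses arrays of that comparison. The mice were females of a SCID strain, aged 80 to 100 days, in which the left anterior descending artery had been ligated. They received exosomes precipitated from beating cardiomyocytes made from induced pluripotent stem cells (iCM-Ex), the cardiomyocytes themselves (iCM) or saline. The peri-infarct region was dissected 4 weeks after infarction, away from the infarct core and the remote wall, and hybridised to Clariom S arrays, with 3 arrays in each of the 3 groups. All 3 groups share the infarct and the SCID background, in which functional T and B lymphocytes are missing, so no uninjured heart and no immunocompetent host enters the comparisons. The species of the stem cells is not given in the sources used here, and the labels call the 3 arrays of a group biological replicates without saying more.

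Small heat shock proteins are chaperones that work without ATP. They share a conserved alpha-crystallin domain, assemble into oligomers and hold unfolding proteins in a soluble state until ATP-driven chaperones refold them or they are degraded. Heart muscle is rich in several of them, where they bind desmin, titin, actin and other parts of the contractile apparatus. Cryab, also called alpha B-crystallin, stabilises desmin filaments, and mutations of it cause desmin-related cardiomyopathy. Hspb6 is phosphorylated by protein kinase A during beta-adrenergic stimulation and protects cardiomyocytes in mice that overexpress it. Hspb7, also known as cardiovascular heat shock protein, regulates thin filament assembly. Hspb8 acts with the co-chaperone Bag3 to send damaged proteins to autophagy. Hspb1 is made in many cell types, is induced by heat shock factor and is phosphorylated by the kinase Mapkapk2. Hspb2 and Hspb3 form a complex of their own in muscle.

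The stretches before the gene starts are shown for Hspb1, Hspb6 and Hspb7, because their signals took different courses and only some hold the motif of heat shock factor. The RefSeq promoter table, on build GRCm38.p6, listed a start for 5 of the 7 genes, and Cryab and Hspb2 had no entry. In the gene table Cryab and Hspb2 follow each other by start. The Hspb2 span, chr9:50751072-50752354, lies within the Cryab span, chr9:50745951-50756636. The 250 bases upstream of each start were searched on both strands for a short heat shock element, GAANNTTC or TTCNNGAA, and for TATAAA, and also for the CArG box of serum response factor and the MEF2 motif by their usual consensus. Capitals mark matches to the first of these motifs and, near the end of the Hspb6 stretch, to TATAAA. The positions are chr5:135887669-135887918 for Hspb1, chr7:30553051-30553300 for the downstream of the 2 listed Hspb6 starts and chr4:141420529-141420778 for Hspb7, all on the plus strand.
Hspb1: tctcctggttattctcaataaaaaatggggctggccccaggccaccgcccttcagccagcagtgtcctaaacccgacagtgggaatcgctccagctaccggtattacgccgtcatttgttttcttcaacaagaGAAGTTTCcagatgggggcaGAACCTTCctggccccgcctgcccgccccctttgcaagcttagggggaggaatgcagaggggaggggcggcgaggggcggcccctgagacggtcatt
Hspb6: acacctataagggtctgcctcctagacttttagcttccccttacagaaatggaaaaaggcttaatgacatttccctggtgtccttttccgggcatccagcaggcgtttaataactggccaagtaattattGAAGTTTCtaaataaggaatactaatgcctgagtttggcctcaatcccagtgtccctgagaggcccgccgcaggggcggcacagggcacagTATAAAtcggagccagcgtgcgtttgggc
Hspb7: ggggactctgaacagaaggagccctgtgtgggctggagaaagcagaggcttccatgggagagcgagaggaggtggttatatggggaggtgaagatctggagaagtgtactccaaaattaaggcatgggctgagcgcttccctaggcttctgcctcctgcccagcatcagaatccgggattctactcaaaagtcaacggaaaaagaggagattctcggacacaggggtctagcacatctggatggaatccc

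Hspb1 held 2 heat shock elements, and Hspb6 held 1 before its downstream start and 0 before its upstream start. Hspb3 also held 1, whereas Hspb7 and Hspb8 held 0. The element is common, since it was found in 12.8% of 32851 stretches of this length. TATAAA, found in 12.4% of them, stood before the downstream Hspb6 start and before Hspb3. The MEF2 motif, found in 2.92%, stood before Hspb3, where it covers the TATAAA match, and the CArG box, found in 1.47%, stood before none of the 5 genes. A match is a run of letters and does not show that a factor was bound.

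Facts on the whole set of arrays bear on every value below. The deposited signals are on a log2 scale, and a difference of 1 is a doubling of signal. Control separation, the median positive minus the median negative control signal of an array, was 3.63 to 4.01 in iCM-Ex, 2.47 to 3.21 in iCM and 3.26 to 3.56 in saline, so every iCM array lay below every other array. Markers of other tissues were high on single arrays. Sftpc, a lung surfactant gene, reached 18.09 on the third iCM-Ex array and 19.53 and 11.02 on the first and second iCM arrays, against at most 5.96 on the saline arrays. Myh4, a myosin gene of fast skeletal muscle, reached 15.77 on the second iCM array. The mean log2 signal of 8 lung markers was 4.58 to 9.04 in iCM-Ex, 4.92 to 12.46 in iCM and 4.37 to 4.80 in saline. That of 9 fast skeletal muscle markers was 4.93 to 5.64, 5.31 to 12.20 and 4.92 to 5.80 in these groups, and that of 7 adipocyte markers was 4.25 to 5.61, 4.78 to 8.77 and 4.23 to 5.19. None of these markers was past the limma threshold, an adjusted p of 0.05 over all genes, in any contrast. Signal on single arrays widens the spread of a group, to an SD of 6.47 for Sftpc in iCM, so nothing is read from this. Adipoq, an adipocyte hormone gene, was highest on the second iCM array at 12.75. Values said to be without these 3 arrays rest on 1 iCM array, whose spread is assumed to be that of the other groups. The heart itself was well represented. The 12 cardiomyocyte markers, among them the myosin gene Myh6 and the troponin gene Tnnt2, had a mean log2 signal of 16.39 to 16.84 in iCM-Ex, 15.82 to 17.70 in iCM and 16.35 to 17.04 in saline. Of these markers 1, the myoglobin gene Mb, reached within 0.1 of the highest signal on the arrays, and none of the 7 small heat shock genes came within 0.01 of it.

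Hspb6 varied most within the family. Log2 signals of 13.78, 15.98 and 16.26 were read in iCM-Ex, 11.89, 9.51 and 14.04 in iCM and 18.81, 17.56 and 16.79 in saline. All iCM arrays and all iCM-Ex arrays lay below all saline arrays, while iCM-Ex replicate 1 lay just below iCM replicate 3. The group means were 15.34 ± 1.36 in iCM-Ex, 11.82 ± 2.27 in iCM and 17.72 ± 1.02 in saline (SD, n = 3 each). The iCM minus saline difference was −5.90 ± 1.05 log2 units (SE), a 59.9-fold lower signal, and stood at rank 2 from the lowest of all 19505 differences in this contrast. This is the value that was known when the family was chosen. The lowest array, iCM replicate 2, was the one with the lowest control separation and the highest skeletal muscle and fat markers, and the difference was −4.75 without it. It was −3.68 without the 3 arrays that carry markers of other tissues and −4.28 with control separation as a covariate.

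For Hspb6 the exosome group lay between the other groups. The iCM-Ex minus saline difference was −2.38 ± 1.05 log2 units (SE), and the iCM-Ex minus iCM difference was 3.53 ± 1.05. Both share arrays with the value that was known and carry no test. Without the arrays with markers of other tissues the iCM-Ex minus iCM difference was 0.84 and the iCM-Ex minus saline difference −2.84.

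Hspb7 showed the same order with a smaller range. Its log2 signal was 17.13, 18.65 and 18.60 in iCM-Ex, 15.72, 15.02 and 17.49 in iCM and 18.62, 19.05 and 18.76 in saline. No iCM array reached a saline array, whereas iCM-Ex replicate 2 lay within the saline values. Hspb7 fell by 2.73 ± 0.60 (log2, SE) in iCM, to 16.08 ± 1.27, against 18.81 ± 0.22 in saline (SD, n = 3 each; limma adjusted p = 0.0379). The call was lost on removal of 7 of the 9 arrays taken singly, with a limma adjusted p of 0.0155 to 0.125 over the removals. The highest value came without saline replicate 2. It was also lost with control separation as a covariate (−1.73, adjusted p = 0.373), without the arrays with markers of other tissues (−1.33, adjusted p = 0.434) and in a fit of the 6 arrays of these groups alone (adjusted p = 0.0681). Its difference was −0.69 ± 0.60 for iCM-Ex minus saline (limma adjusted p = 0.646) and 2.05 ± 0.60 for iCM-Ex minus iCM (limma adjusted p = 0.139). The iCM-Ex minus iCM difference of Hspb7 was 0.40 without the arrays with markers of other tissues and 0.37 with control separation as a covariate.

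Cryab ran in parallel with both. Its log2 signal was 17.07, 17.44 and 17.70 in iCM-Ex, 15.86, 14.56 and 17.50 in iCM and 18.10, 18.43 and 17.38 in saline. Only iCM replicate 3 reached the lowest saline array, and the iCM-Ex arrays overlapped with both other groups. The iCM minus saline difference was −1.9996 ± 0.62, with a 95% interval of −3.38 to −0.62 (limma adjusted p = 0.102). The iCM-Ex minus saline difference was −0.57 ± 0.62 (limma adjusted p = 0.721) and the iCM-Ex minus iCM difference 1.43 ± 0.62 (limma adjusted p = 0.325). Removal of iCM replicate 3 brought the iCM minus saline difference of Cryab to −2.76 and past the threshold (limma adjusted p = 0.0234). Without the arrays with markers of other tissues that difference was −0.47, and the difference between iCM-Ex and iCM turned to −0.25.

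Hspb8, the partner of Bag3, had its highest mean in iCM-Ex and its lowest in iCM. Its log2 signal was 12.92, 13.85 and 13.26 in iCM-Ex, 10.60, 11.67 and 12.20 in iCM and 13.51, 13.57 and 11.73 in saline. All iCM-Ex arrays lay above all iCM arrays, and saline replicate 3 fell among the iCM values. Hspb8 was 1.85 ± 0.56 higher in iCM-Ex than in iCM, with a 95% interval of 0.62 to 3.09 (limma adjusted p = 0.146), and 1.18 higher without the arrays with markers of other tissues. Its difference was −1.45 ± 0.56 for iCM minus saline (limma adjusted p = 0.174) and 0.40 ± 0.56 for iCM-Ex minus saline (limma adjusted p = 0.789). Without the arrays with markers of other tissues the iCM minus saline difference of Hspb8 was −0.74.

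**Figure D1:**
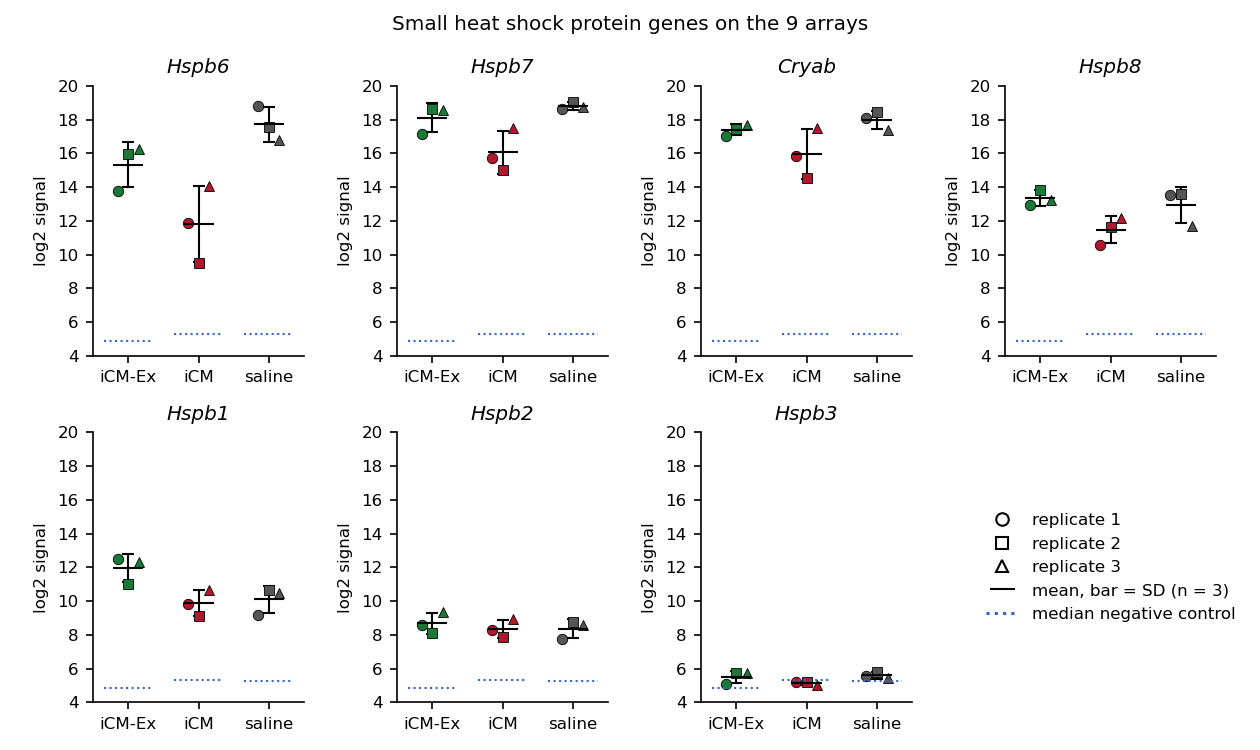
Log2 signal of each small heat shock gene (vertical axis) on the 9 arrays, by group (horizontal axis), with symbols for the replicate, the mean and SD of 3 arrays, and the mean over arrays of the median negative control as a dotted line. Hspb6, Hspb7 and Cryab are lowest in iCM replicate 2, Hspb1 is high on all 3 iCM-Ex arrays, and Hspb3 sits at the negative controls.

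Hspb1, the broadly expressed and heat-inducible member, took another course. Its log2 signal was 12.51, 11.01 and 12.33 in iCM-Ex, 9.81, 9.13 and 10.68 in iCM and 9.21, 10.64 and 10.51 in saline. All iCM-Ex arrays were above all arrays of the other groups, and the iCM and saline arrays overlapped. The iCM-Ex mean of 11.95 ± 0.82 was 1.83 ± 0.55 (SE) above the saline mean of 10.12 ± 0.79 (SD, n = 3 each; limma adjusted p = 0.161), with a 95% interval of 0.61 to 3.04. It was 2.08 ± 0.55 above the iCM mean of 9.87 ± 0.78 (limma adjusted p = 0.102), and this difference was 1.08 without the arrays with markers of other tissues and 1.40 with control separation as a covariate. Neither difference was past the threshold over all genes. Between iCM and saline the difference was −0.25 ± 0.55, with an interval of −1.47 to 0.96. The iCM-Ex minus saline difference of Hspb1 lay between 1.37 and 2.30 when each array was left out, and was 1.63 without the arrays with markers of other tissues and 1.55 with control separation as a covariate. Macrophage markers also stood high in the exosome group. The mean log2 signal of 5 of them was 12.69 to 12.78 in iCM-Ex, 9.47 to 11.02 in iCM and 9.36 to 12.75 in saline, with 0 past the limma threshold in any contrast, and their part in the Hspb1 difference was not tested.

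Hspb2 and Hspb3, partners in one complex, differed little between groups. Hspb2 had log2 signals of 8.59, 8.11 and 9.35 in iCM-Ex, 8.27, 7.87 and 8.94 in iCM and 7.74, 8.79 and 8.61 in saline. The 3 groups overlapped for it in every comparison. Its differences were −0.02 for iCM minus saline (95% interval −0.97 to 0.93), 0.30 for iCM-Ex minus saline (−0.64 to 1.25) and 0.32 for iCM-Ex minus iCM (−0.62 to 1.27). Changes within these intervals remain possible for Hspb2. Cryab, whose listed span holds that of Hspb2, had a difference of −1.9996 between iCM and saline, and whether these genes differ was not tested. Hspb3 had log2 signals of 5.10, 5.72 and 5.72 in iCM-Ex, 5.18, 5.19 and 5.05 in iCM and 5.55, 5.83 and 5.42 in saline. The mean of the median negative controls was 4.86 in iCM-Ex, 5.31 in iCM and 5.29 in saline, so Hspb3 lay near background and its iCM mean of 5.14 lay below the controls. Its iCM arrays were all below its saline arrays, with a difference of −0.46 ± 0.27 (limma adjusted p = 0.380), and a difference of that size so close to background cannot be read as a change in RNA.

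Of the 6 members tested in iCM minus saline, all but Hspb6, limma placed 1 past the threshold, Hspb7, which was lower. The same rule called 3.67% of all genes in that contrast and 2.33% as lower. At an unadjusted p under 0.05 there were 3 members, Hspb7, Hspb8 and Cryab, and 20.5% of all genes. Nothing is read from these member counts because the family was chosen with this contrast known. All 7 differences were below 0, as were 44.5% of those of all genes, and their median was −1.45 against 0.08 over all genes. The arrays of the groups did not overlap for 3 members, Hspb3, Hspb6 and Hspb7, all lower in iCM, and 10.2% of all genes were lower in iCM in this sense. Hspb6 was known beforehand and Hspb3 lay near background, so nothing is read from this overlap, nor from the direction and median above. In bulk tissue, fewer cells that express a gene and less of its RNA per cell cannot be told apart.

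For iCM-Ex minus saline limma called 0 of the 6 members tested, where 0.349% of all genes were called. At an unadjusted p under 0.05 there was 1 member, Hspb1, and 15.2% of all genes. The groups did not overlap for Hspb1, higher in iCM-Ex, and for Hspb6, lower in iCM-Ex, which held for 12.2% of all genes in the higher and 9.53% in the lower direction. The median of the members, Hspb6 included, was −0.08, against 0.04 over all genes.

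For iCM-Ex minus iCM limma also called 0 of the 6 members tested, where 1.07% of all genes were called. At an unadjusted p under 0.05 there were 4 members, Hspb1, Hspb7, Hspb8 and Cryab, and 14.5% of all genes. All 7 were higher in iCM-Ex, as were 46.1% of all genes, and the median was 1.85, against −0.04 over all genes. The groups did not overlap for Hspb1 and Hspb8, and 10.2% of all genes were higher in this sense. This contrast shares the iCM arrays with the first and the iCM-Ex arrays with the second. Its direction count and median include Hspb6, so nothing is read from them. With control separation as a covariate the median of the members was 0.37, and it was 0.40 without the arrays with markers of other tissues.

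**Figure D2:**
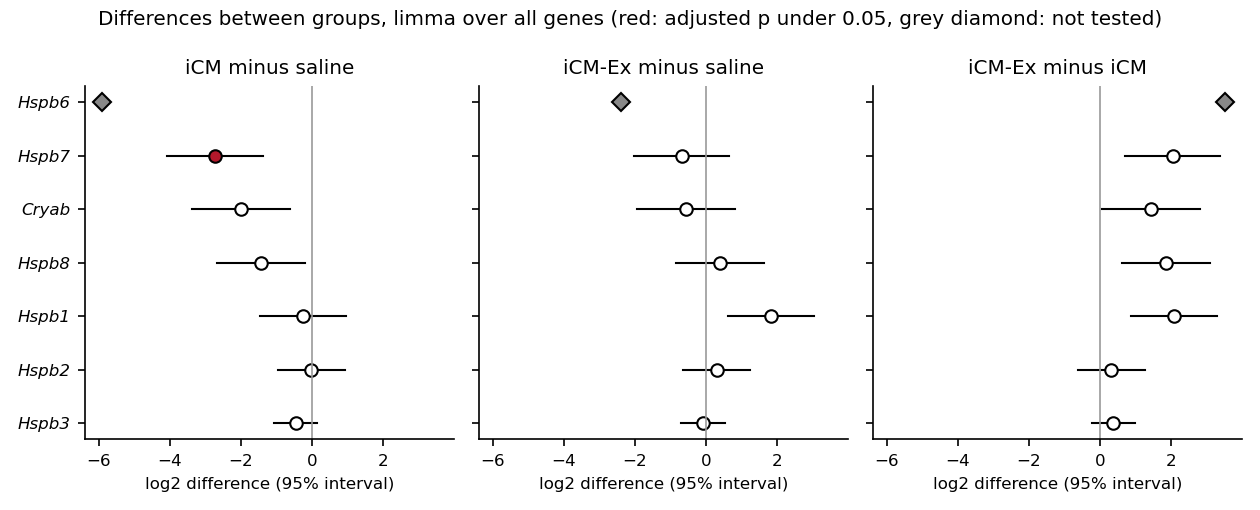
Difference of mean log2 signal (horizontal axis) for each of the 7 genes (vertical axis) in the 3 contrasts, with the unadjusted 95% interval of the limma fit over 19505 genes for the 6 genes tested. Hspb7 in iCM minus saline is past an adjusted p of 0.05, and Hspb6, at −5.90 there, is drawn as a grey diamond with no interval because it was not tested.

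The family was also set against the cardiomyocyte markers of the same arrays. Of the 12 cardiomyocyte markers limma called 0 in iCM minus saline, where 3.67% of all genes were called. Of the 12, 2 were past an unadjusted p of 0.05, as were 20.5% of all genes. The lowest were Actc1 (−1.66) and Actn2 (−1.20), and those above 0 were Myh6 (1.24) and Ckm (0.86). Of the 12 markers 10 were below 0, as were 44.5% of all genes, and their median difference was −0.06. The mean signal of 4 of these markers, Myl2, Tnnt2, Pln and Mb, lay within 1 log2 unit of the highest signal on the arrays, where little room is left to rise, and the median of the other 8 was −0.10. Values were then taken relative to the marker mean of each array. The iCM minus saline difference was −5.71 for Hspb6, −2.54 for Hspb7 and −1.81 for Cryab, without overlap between the groups. The groups overlapped for Hspb8 (−1.26), Hspb3 (−0.27), Hspb1 (−0.06) and Hspb2 (0.17). Relative to the same mean the iCM-Ex minus saline difference was 2.01 for Hspb1 and −2.19 for Hspb6, again without overlap, while the other members overlapped. The share of all genes without overlap on this measure was not computed, and Hspb6 was known beforehand, so nothing is read from the overlap. The other 8 markers alone were also used, a choice made after seeing the data. Relative to them the iCM minus saline differences of Hspb6, Hspb7 and Cryab were −5.69, −2.52 and −1.78. The iCM-Ex minus saline difference of Hspb1 was 2.13. Fibroblast markers moved in the direction of the family median in 2 of the 3 contrasts. All 6 were lower in iCM than in saline, with a median difference of −1.30, where 44.5% of all genes were lower. All 6 were higher in iCM-Ex than in iCM, with a median of 1.25, where 46.1% of all genes were higher. Of these Dcn, near the highest signal, had only −0.04 and 0.05. In iCM-Ex minus saline 5 of the 6 were above 0, with a median of 0.27, against −0.08 for the family. The mean log2 signal of the 6 markers was 15.68 to 17.19 in iCM-Ex, 13.71 to 16.35 in iCM and 15.14 to 17.17 in saline. Limma called 0 of them in any contrast, and their part in the family's differences was not tested. Of 5 endothelial markers limma also called 0 in any contrast. Their median difference was −0.31 in iCM minus saline, −1.14 in iCM-Ex minus saline and −0.885 in iCM-Ex minus iCM. In iCM-Ex minus saline 3 of the 5 were lower without overlap, as were 9.53% of all genes, and Emcn was higher at 0.51. The part of endothelial cells in the family's differences was not tested. Of the 6 smooth muscle markers 1 was past the threshold, Smtn, which fell by 1.52 in iCM relative to saline (limma adjusted p = 0.0498). Limma called 2.33% of all genes as lower there, and Smtn was not followed under the other settings. In the same contrast Acta2 (−1.84), Cnn1 (−0.90) and Tagln (−0.32) were lower, whereas Myh11 (0.35) and Lmod1 (0.62) were higher. The part of control separation and of lung, skeletal muscle and fat tissue in the family's differences was not tested beyond the values given above.

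**Figure D3:**
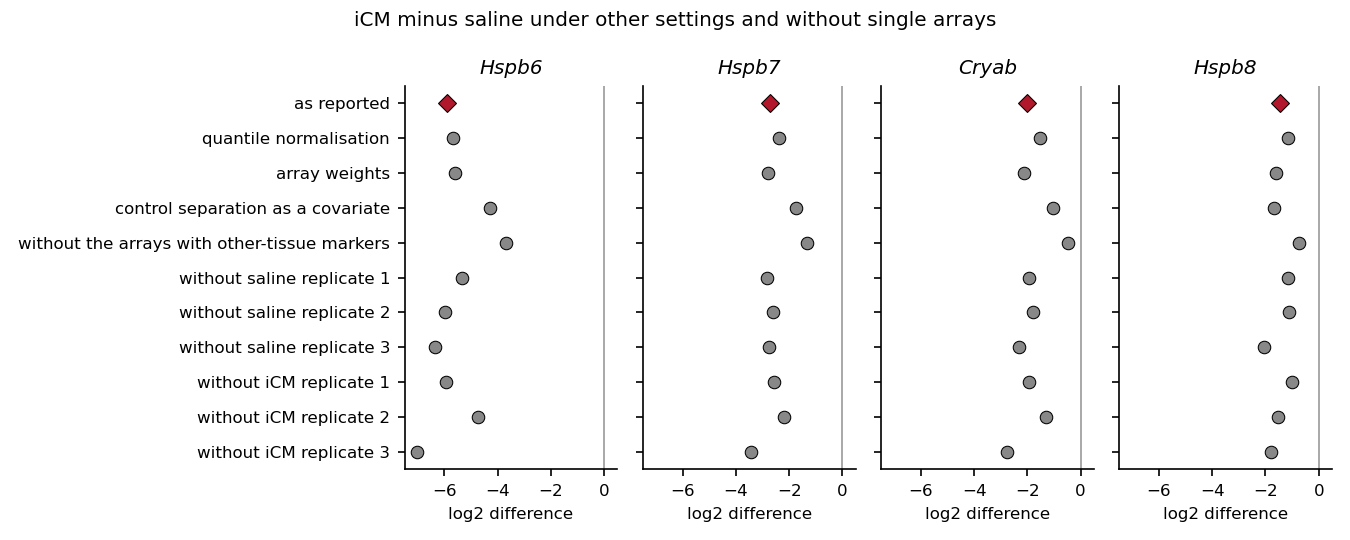
Difference of mean log2 signal between iCM and saline (horizontal axis) for Hspb6, Hspb7, Cryab and Hspb8 as reported (diamonds) and under other settings or without single arrays (circles, vertical axis). Every point lies below 0, and those without the 3 arrays with markers of other tissues lie nearest to 0, at −3.68, −1.33, −0.47 and −0.74.

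The other genes of the heat shock system were described from lists chosen with earlier results known. Most of the 14 measured heat shock response genes encode ATP-driven chaperones or their co-chaperones. In iCM minus saline 11 of the 14 were below 0, as were 44.5% of all genes, with a list median of −0.57. Ahsa1 (0.85), Hspa1a (0.70) and Hspa1b (0.51) went the other way. Limma called 1 of the 14 as lower and 0 as higher in iCM, where 2.33% of all genes were called as lower. The gene called was Hsp90aa1, the inducible cytosolic Hsp90. Its log2 signal was 14.74, 14.24 and 13.83 in iCM-Ex, 11.39, 11.20 and 11.38 in iCM and 13.02, 12.31 and 13.07 in saline. The 3 groups did not overlap at any point for Hsp90aa1, with iCM-Ex highest and iCM lowest. It fell by 1.48 ± 0.32 in iCM relative to saline (limma adjusted p = 0.0370), a call lost on removal of 7 of the 9 arrays, with a highest limma adjusted p of 0.113 without iCM replicate 2. It was also lost under quantile normalisation (adjusted p = 0.0898), with control separation as a covariate (adjusted p = 0.259), without the arrays with markers of other tissues (adjusted p = 0.282), with a robust intensity trend (adjusted p = 0.0853) and in the 2 groups alone (adjusted p = 0.0681). It rose by 2.95 ± 0.32 in iCM-Ex relative to iCM (limma adjusted p = 0.0125), and that difference stayed between 2.72 and 3.17 whichever array was left out. The limma adjusted p for Hsp90aa1 was 0.0843 without iCM-Ex replicate 2, 0.0696 without iCM-Ex replicate 3, 0.382 with the covariate and 0.164 without the arrays with markers of other tissues.

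Stip1, which links Hsp70 to Hsp90, was the other gene called in iCM-Ex relative to iCM. It had 10.92, 11.93 and 11.66 in iCM-Ex, 9.90, 8.96 and 9.95 in iCM and 10.86, 10.67 and 11.13 in saline, all as log2 signal. All iCM arrays lay below all others. Stip1 rose by 1.90 ± 0.37 in iCM-Ex relative to iCM (limma adjusted p = 0.0444), a call lost on removal of 6 of the 9 arrays, with a highest limma adjusted p of 0.211 without iCM-Ex replicate 3. The Stip1 difference was 0.76 with control separation as a covariate (adjusted p = 0.864) and 1.47 without the arrays with markers of other tissues (adjusted p = 0.453). In that contrast 2 of the 14 heat shock response genes rose and 0 fell, with a list median of 0.52, while 0.795% of all genes rose. In iCM-Ex minus saline limma called 0 of the 14, against 0.349% of all genes, with a median of 0.38. At an unadjusted p under 0.05 there were 4, against 15.2% of all genes. These went both ways, with Hsp90aa1 (1.47) and Hspa1a (0.86) higher and Hspd1 (−1.57) and Hspa4l (−1.22) lower.

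The remaining lists held no gene past the limma threshold in any contrast. Over all genes the share past an unadjusted p of 0.05 was 20.5% in iCM minus saline, 15.2% in iCM-Ex minus saline and 14.5% in iCM-Ex minus iCM. Among 3 measured heat shock factors and regulators, Hsf2, Hsf4 and Hsbp1, the number past an unadjusted p of 0.05 was 2 in iCM minus saline, 3 in iCM-Ex minus saline and 1 in iCM-Ex minus iCM. The numbers for the 4 measured genes of Bag3-dependent autophagy were 1, 0 and 0 in the same order of contrasts. Those for the 5 kinases that act on small heat shock proteins, directly or through another kinase, were 1, 2 and 1. Those for the 8 filament and Z-disc partners were 4, 4 and 2. In the same order the median difference was 1.02, 0.93 and −0.12 for the heat shock factors and regulators and −0.14, −0.72 and −0.46 for the autophagy genes. It was 0.39, −0.38 and 0.38 for the kinases and −1.08, −1.23 and −0.68 for the filament and Z-disc partners, against 0.08, 0.04 and −0.04 over all genes. Among the regulators Hsbp1 had −0.90, 1.65 and 2.55, Hsf2 1.29, 0.93 and −0.35 and Hsf4 1.02, 0.90 and −0.12. The regulator median thus hides Hsbp1, which ran the other way in iCM minus saline (limma adjusted p = 0.364) and in iCM-Ex minus iCM (limma adjusted p = 0.0537). Desmin, the filament that Cryab protects, had an iCM minus saline difference of −1.14 ± 0.42 (limma adjusted p = 0.157), and Bag3 one of −1.43 ± 0.51 (limma adjusted p = 0.143). Their lists were split in this contrast. Of the 8 filament and Z-disc partners 5 were below 0, while Flnc (0.47), Ttn (0.44) and Ldb3 (0.03) were above. Of the 4 autophagy genes 2 were below 0, while Flnc, which is on both lists, and Synpo2 (0.15) were above. The titin gene Ttn was lower in iCM-Ex than in saline (−2.55) and than in iCM (−2.99). The further family members Cryaa, Hspb9 and Odf1, known from lens and testis, had 0 calls, with 0, 1 and 0 past an unadjusted p of 0.05.

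**Figure D4:**
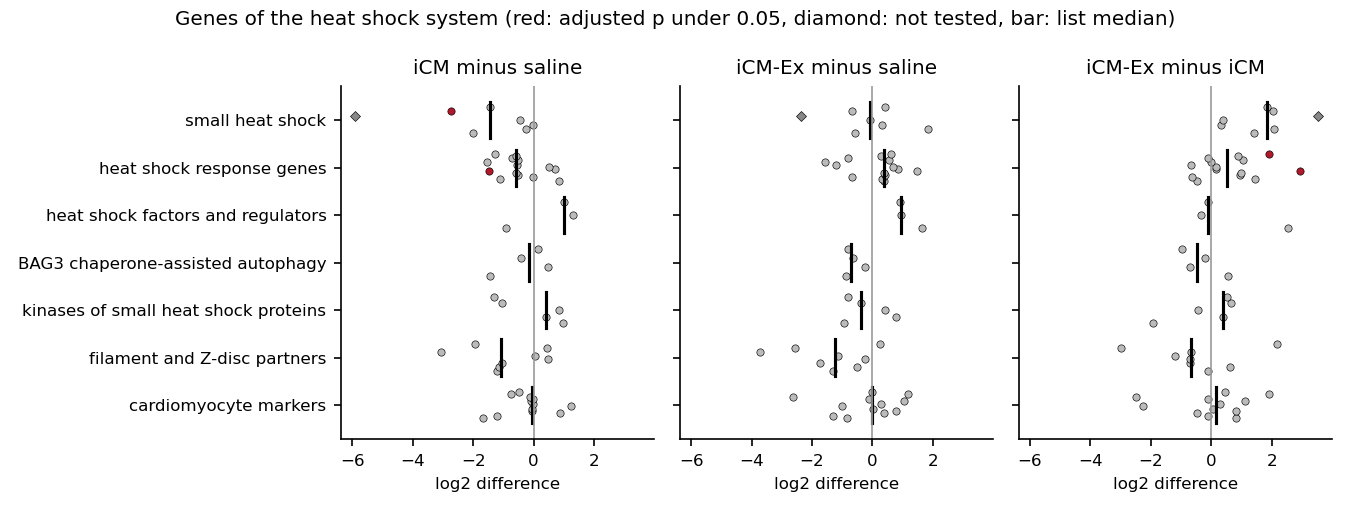
Difference of mean log2 signal (horizontal axis) of each measured gene of the heat shock lists and of the cardiomyocyte markers (vertical axis, by list) in the 3 contrasts, with the list median as a bar and genes past an adjusted p of 0.05 in red. The medians of the small heat shock genes are −1.45, −0.08 and 1.85.

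The genes most like Hspb6 over the 9 arrays, by Pearson correlation of log2 signal among all genes tested, were Cog5 (r = 0.99), Ptp4a3 (0.99), St3gal3 (0.98), Stoml2 (0.98) and Smpd1 (0.98), with predicted genes and olfactory and vomeronasal receptors left out. Cog5 is a subunit of a Golgi tethering complex, Ptp4a3 a phosphatase, St3gal3 a sialyltransferase, Stoml2 an inner membrane protein of mitochondria and Smpd1 the acid sphingomyelinase of lysosomes. Within the family Hspb7 had r = 0.96 with Hspb6 and Cryab 0.93, whereas Hspb1 and Hspb2 each had 0.19. Hspb8 had 0.69, and Hspb3, which lay near background, had 0.71. The genes most like Cryab were Nploc4 (r = 0.97), Idh3g (0.97), Popdc2 (0.96), Anapc5 (0.96) and Hmmr (0.96), of which Popdc2 encodes a membrane protein of heart and skeletal muscle and Idh3g a subunit of isocitrate dehydrogenase. Hmmr, a receptor for hyaluronan, averaged below the negative controls in each group. The 9 points share 3 groups and the array differences described above, so these values rank likeness and carry no test. When each array was left out in turn the lowest r of the 10 pairs was 0.92.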

How the data were processed

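The deposited table holds log2 signals of the authors, with 1 value for each probe set on each array. Per the submitters' processing notes Affymetrix Expression Console was used, and its version and normalisation are not given here by any source. That the unit is log2 follows from the range of the values, 2.25 to 19.93. Of 28846 rows 6640 were controls, and 19572 of the 22206 gene rows had 1 symbol in the platform annotation, all matched to the RefSeq gene table. The brightest row was kept for the 55 genes with several rows, which left 19505 genes. All 9 arrays entered 1 limma fit (limma 3.58.1 in R 4.3.3) with a mean per group and moderated variances (4.23 prior and 6 residual degrees of freedom). P-values are two-sided and adjusted by Benjamini-Hochberg over all genes within a contrast, never over the family alone, and the threshold was 0.05. Hspb6 was left out of the family's tests and counts of calls. SE is moderated, SD is over 3 arrays, and the number of arrays limits the precision. An exact permutation test of 3 against 3 arrays cannot give a p below 0.1 and was not used. Named were all 7 members, list genes past the threshold, the 5 genes most like Hspb6 and Cryab, and 3 tissue markers. The other genes named, among them desmin, Bag3, the heart markers and the heat shock regulators, were added after their values were seen. The members and lists were chosen with earlier results of these data known. Alternatives changed the scaling, the filter, the rows, the arrays and the moderation. Promoter stretches are from RefSeq, build GRCm38.p6.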

Additional observations from a re-analysis of the deposited data

How the results depend on the processing

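Only 9 arrays were available, the counts of called genes moved widely with single arrays, and no call within the family held under every alternative. In iCM minus saline limma called 716 genes in all, 279 in a fit of the 2 groups alone, 1500 with array weights, 33 with control separation as a covariate and 6 without the arrays with markers of other tissues. Leaving out 1 array gave 126 (saline replicate 2) to 803, and also 423 without saline replicate 3, 196 without iCM replicate 2, 462 without iCM-Ex replicate 2 and 436 without iCM-Ex replicate 3. The count among the 6 members tested was 1, Hspb7, against 0 with the 2 groups alone, 0 with the covariate, 0 without those arrays and 0 to 2 on leaving out 1 array, where Cryab joined Hspb7 without iCM replicate 3. In iCM-Ex minus saline the 68 genes became 1 in the 2 groups alone, 17 with a robust intensity trend, 1187 with array weights, 5 with the covariate, 0 without those arrays and 0 to 163 on leaving out 1 array. In iCM-Ex minus iCM the 208 genes became 352 among genes above the median mean (where Hspb3 is not tested), 13 in the 2 groups alone, 559 with array weights, 0 with the covariate, 0 without those arrays and 0 to 401 on leaving out 1 array. In these contrasts 0 members were called under every alternative run. The same-numbered arrays do not appear to be paired: their deviations from the group means correlated at −0.257 to 0.068. A fit with the replicate block gave 338, 0 and 18 genes in the contrasts in this order, and 0 of the members tested in each, with Hspb7 at an adjusted p of 0.0538 in iCM minus saline.

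Differences near 0 turned sign. For iCM minus saline, Hspb1 was 0.16 with the covariate, 0.55 without the arrays with markers of other tissues and −0.71 to 0.12 on leaving out 1 array. Hspb2 was 0.089 after quantile normalisation, 0.29 with the covariate, 0.56 without those arrays and −0.34 to 0.22 on leaving out 1 array. For iCM-Ex minus saline, Hspb2 was −0.028 without those arrays and −0.028 to 0.59 on leaving out 1 array, Hspb3 −0.19 to 0.13 and Hspb8 −0.20 to 0.72. For iCM-Ex minus iCM, Hspb2 was −0.19 with the covariate, −0.59 without those arrays and −0.0079 to 0.62 on leaving out 1 array, and Cryab was −0.16 with the covariate and −0.25 without those arrays. The cause was not tested for any of these. Hspb3 was too close to the negative controls to measure a fall.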
